A study of Mus musculus with 24 samples.

Results

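The transcripts of 9 genes that mark the osteoclast lineage were followed in mouse macrophages with and without the secreted glycoprotein gene *Olfml3*. They are *Acp5*, *Ctsk*, *Nfatc1*, *Tnfrsf11a*, *Dcstamp*, *Ocstamp*, *Atp6v0d2*, *Oscar* and *Itgb3*, chosen by gene symbol, and all 9 were found among the 56691 genes of each of 2 expression tables. RNA-seq had been made to ask how loss of *Olfml3* changes macrophages at rest and under lipopolysaccharide (LPS), the bacterial cell wall product that activates TLR4. There were 24 libraries in 8 groups of 3, from the mouse macrophage line RAW264.7 and from bone marrow-derived macrophages (BMDMs). In each cell type the groups were wild type with PBS, *Olfml3* knockout with PBS, wild type with LPS and *Olfml3* knockout with LPS, with LPS given at 100 ng/mL for 4 h. The knockout RAW264.7 cells were made with guide RNAs delivered by lentivirus and grown from sorted single cells, so that they are clonal, whereas the knockout BMDMs came from *Olfml3*-/- mice on a C57BL/6 background. BMDMs were grown from leg bones of 8-week-old male animals in medium conditioned by L929 cells, a source of M-CSF. Neither the labels nor the methods name RANK ligand for any group.

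Osteoclasts are the multinucleated cells that resorb bone, and they form from cells of the monocyte and macrophage lineage. M-CSF keeps the precursors alive, RANK ligand binds the receptor RANK (*Tnfrsf11a*), and signals through TRAF6, NF-κB and AP-1, together with calcium signals from immunoreceptors such as OSCAR, raise NFATc1, the transcription factor that directs the programme. Targets of NFATc1 then let precursors fuse (DC-STAMP and OC-STAMP), attach to bone (integrin β3), acidify the space beneath the cell (the d2 subunit of the vacuolar proton pump) and digest its matrix (cathepsin K and tartrate-resistant acid phosphatase). LPS is known to act on this path in different ways depending on whether a precursor has already met RANK ligand, and RAW264.7 is widely used as an osteoclast precursor.

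Levels are given as FPKM, fragments scaled to exon length and library total, as the authors deposited them, so that they can be compared between genes. For each cell type, limma was fitted once to log2(FPKM + 0.1) of all its libraries. A gene passed the call when its Benjamini-Hochberg adjusted p over all genes tested was under 0.05 and its fold change was at least 1.5. The added 0.1 makes fold changes of genes near or under 0.1 FPKM too small. The 2 tables were made separately, so values of RAW264.7 and BMDMs were set side by side and not tested against each other. Comparisons within a cell type share libraries. Nothing in the labels says that the 3 libraries of a group came from separate cultures or animals, so p-values measure the spread between these libraries.

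The RAW264.7 libraries held 11638273 to 16478616 counts each and the BMDM libraries 17121240 to 22873094. *Olfml3* was at 0.24 to 0.65 FPKM in wild-type BMDMs and at 0 to 0.03 in the knockout. In RAW264.7 it went against the labels: wild-type libraries had 0.13 to 0.29 FPKM, those labelled knockout had 0.65 to 1.19 with PBS and 18.33 to 18.93 with LPS, and gene counts do not show whether the edited sequence is present. In the line, replicate 1 of the group labelled knockout and given PBS stood apart from replicates 2 and 3 (chi-square per degree of freedom of their counts 88.9 and 90.0, against 2.33 between the other two), so the markers and the lists of related genes were also fitted without it. In BMDMs the wild-type libraries with LPS differed more among themselves (11.4, 9.28 and 5.14) than those of any other BMDM group (1.80 to 2.82). Of 8 macrophage markers, 7 averaged at least 1 FPKM over the RAW264.7 libraries (all but *Mertk*) and 8 in BMDMs, while 0 of 8 osteoblast and fibroblast, 0 of 5 megakaryocyte, 0 of 5 dendritic cell and 0 of 6 T and B cell markers reached it in either table. Neutrophil markers reached it for 0 of 6 genes in RAW264.7 and for 2 of 6, *S100a8* and *S100a9*, in BMDMs. In bulk RNA, fewer cells that carry a transcript and less of it in each cell cannot be told apart.

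The stretches before the start sites of *Acp5* and *Ctsk* are shown because they belong to the resorption enzymes, of which *Acp5* was called in the LPS comparisons of BMDMs and *Ctsk* was not. They are the 250 bases before a RefSeq start site on the GRCm38.p6 build, *Acp5* on the minus strand at chr9:22130599-22130848, the innermost of its 3 listed starts, and *Ctsk* on the plus strand at chr3:95498960-95499209. Capitals mark a match to the M-box, the site of the MITF and TFE factors, here on the strand opposite to the gene.
Acp5: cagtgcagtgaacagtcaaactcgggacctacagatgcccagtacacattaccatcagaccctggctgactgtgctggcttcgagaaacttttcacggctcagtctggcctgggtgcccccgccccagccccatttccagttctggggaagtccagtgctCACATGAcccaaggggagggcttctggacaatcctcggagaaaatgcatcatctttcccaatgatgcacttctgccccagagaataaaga
Ctsk: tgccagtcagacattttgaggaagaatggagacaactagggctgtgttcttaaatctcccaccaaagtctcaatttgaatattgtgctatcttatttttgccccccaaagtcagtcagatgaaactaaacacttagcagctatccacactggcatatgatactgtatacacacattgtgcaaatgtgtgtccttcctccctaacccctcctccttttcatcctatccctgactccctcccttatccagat
The M-box letters TCATGTG were searched on both strands and stand at bases -90 to -84 of the *Acp5* stretch, where they do not overlap another motif searched. Of the 3 listed *Acp5* starts, only the one shown has these letters before it. They occur in 3.25% of 32851 promoter stretches of this length. The NFAT core GGAAA was found in the same *Acp5* stretch at -117 to -113 and at -37 to -33, and it occurs in 55.6% of all stretches. Neither was found before the *Ctsk* start, and the AP-1 letters TGANTCA (6.75% of all stretches) and the PU.1 letters GAGGAAGT (2.44%) were in neither stretch. A match of letters is a description and shows no binding. Start sites were used for 4 of the 9 genes (*Acp5*, *Ctsk*, *Tnfrsf11a* and *Oscar*).

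Positions of the genes below are those in the deposited tables. The submitters' processing notes name mm10, but only 2157 of 52073 genes shared with the GENCODE annotation of that build (4.14%) start within 1000 bases of their place there, so the build of these positions is not known.

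The receptors come first. *Tnfrsf11a* (ENSMUSG00000026321; chromosome 1, 105708443 to 105775709, plus strand) encodes RANK. In RAW264.7 it was at 16.45, 15.42 and 15.49 FPKM in wild type with PBS, 16.89, 20.25 and 21.51 in the libraries labelled knockout with PBS, 9.68, 11.06 and 9.69 in wild type with LPS, and 9.52, 9.08 and 9.08 in those labelled knockout with LPS. All 4 groups were apart, although wild type and labelled knockout under LPS almost touched. In BMDMs it was at 25.85, 27.66 and 27.14 FPKM in wild type with PBS, 22.26, 22.06 and 22.68 in knockout with PBS, 18.50, 18.95 and 19.32 in wild type with LPS and 14.11, 14.06 and 13.80 in knockout with LPS. Again no groups overlapped, and both knockout groups lay under their wild-type group. *Oscar* (ENSMUSG00000054594; chromosome 7, 3612812 to 3619156, minus strand), a collagen receptor that costimulates through FcRγ, was hardly detected. Its libraries held 0 to 4 counts in RAW264.7 and 0 to 3 in BMDMs, and no difference was detectable at this depth.

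*Nfatc1* (ENSMUSG00000033016; chromosome 18, minus strand) was transcribed in every library although no RANK ligand is named for any group. In RAW264.7 it was at 20.47, 20.98 and 21.85 FPKM in wild type with PBS, 30.26, 43.21 and 45.29 in the libraries labelled knockout with PBS, 10.13, 10.97 and 11.06 in wild type with LPS and 15.90, 19.17 and 15.58 in those labelled knockout with LPS. The labelled knockout was higher under each treatment, no groups overlapped, and replicate 1 was the lowest of its group. In BMDMs *Nfatc1* was at 7.81, 7.83 and 7.65 FPKM in wild type and 8.14, 7.77 and 7.88 in knockout with PBS, which overlapped. Under LPS it was at 3.12, 3.37 and 3.41 FPKM in wild type and at 2.03, 2.02 and 2.07 in knockout, and there the knockout was lower.

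Among the fusion proteins, *Dcstamp* (ENSMUSG00000022303; chromosome 15, 39609326 to 39624334, plus strand) was at 15.40, 13.35 and 14.62 FPKM in wild-type RAW264.7 with PBS, 6.79, 6.25 and 6.06 in the libraries labelled knockout with PBS, 26.42, 25.16 and 25.73 in wild type with LPS and 14.03, 13.39 and 15.26 in those labelled knockout with LPS. LPS libraries were above PBS libraries in both genotypes, and the labelled knockout under LPS overlapped the wild type at rest. BMDMs held less of it, 2.73, 2.66 and 2.96 FPKM in wild type and 2.38, 2.54 and 3.22 in knockout with PBS, and 0.57, 0.44 and 0.45 in wild type and 0.66, 0.53 and 0.59 in knockout with LPS. There the LPS libraries were below the PBS libraries and the genotypes overlapped under both treatments. *Ocstamp* (ENSMUSG00000027670; chromosome 2, 165235680 to 165242325, minus strand) had the same order of groups as *Dcstamp* in RAW264.7, at 2.21, 3.05 and 2.66 FPKM in wild type with PBS, 0.96, 0.61 and 0.44 in the libraries labelled knockout with PBS, 5.15, 5.52 and 5.88 in wild type with LPS and 1.86, 2.76 and 1.94 in those labelled knockout with LPS. In BMDMs it was at 0.02 to 0.25 FPKM with 2 to 17 counts per library, and neighbouring groups overlapped.

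*Itgb3* (ENSMUSG00000020689; chromosome 11, 104498826 to 104561302, plus strand) encodes integrin β3, which pairs with integrin αv. RAW264.7 libraries held 0 to 6 counts of it and the 3 labelled knockout with LPS held 0. BMDMs had it at 6.66, 6.19 and 6.41 FPKM in wild type and 7.78, 8.53 and 8.53 in knockout with PBS, and at 0.89, 1.23 and 1.17 in wild type and 1.42, 1.75 and 1.39 in knockout with LPS. All 4 BMDM groups were apart, with knockout above wild type under each treatment and LPS far below PBS.

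*Atp6v0d2* (ENSMUSG00000028238; chromosome 4, 19876841 to 19922605, minus strand) encodes the d2 subunit of the proton pump. With PBS it had the highest level of the 9 genes in BMDMs, and with LPS it lay below *Acp5*. It was at 113.87, 111.56 and 117.55 FPKM in wild type and 118.26, 111.50 and 114.98 in knockout with PBS, and at 39.25, 39.29 and 36.84 in wild type and 34.63, 39.41 and 36.13 in knockout with LPS. Genotypes overlapped under both treatments, and LPS and PBS libraries did not. In RAW264.7 it was at 1.49, 1.3 and 1.18 FPKM in wild type and 1.85, 1.01 and 1.08 in the libraries labelled knockout with PBS, and at 0.46, 0.50 and 0.69 in wild type and 0.25, 0.42 and 0.27 in those labelled knockout with LPS. The 2 PBS groups overlapped, and the LPS groups were both lower and narrowly apart.

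The resorption enzymes close the set. *Acp5* (ENSMUSG00000001348; chromosome 9, 22038023 to 22047007, minus strand) encodes tartrate-resistant acid phosphatase. In BMDMs it was at 3.28, 2.68 and 3.25 FPKM in wild type and 0.99, 1.36 and 1.08 in knockout with PBS, and at 52.47, 47.86 and 48.74 in wild type and 71.78, 72.42 and 76.79 in knockout with LPS. No groups overlapped, and the knockout was the lowest group at rest and the highest under LPS. RAW264.7 had 0.92, 0.98 and 0.71 FPKM in wild type and 0.42, 0.31 and 0.28 in the libraries labelled knockout with PBS, and 1.31, 1.57 and 1.3 in wild type and 0.80, 0.64 and 0.80 in those labelled knockout with LPS. These rest on 8 to 47 counts per library, and the labelled knockout was below wild type under each treatment. At such levels the pseudocount matters, and with 1 in place of 0.1 the calls of *Acp5* given below for RAW264.7 all fell under the fold limit (log2 fold changes of -0.48 and -0.45 for genotype, 0.36 and 0.39 for LPS). *Ctsk* (ENSMUSG00000028111; chromosome 3, 95406567 to 95416673, plus strand), the gene of the collagen-degrading cysteine protease cathepsin K, was at 2.95 to 4.99 FPKM in all BMDM libraries. In RAW264.7 it was at 0.18 to 0.78 FPKM with 4 to 17 counts per library, at 0.52, 0.67 and 0.78 in wild type and 0.40, 0.30 and 0.27 in the libraries labelled knockout with LPS. Its neighbouring groups overlapped in RAW264.7, and in BMDMs the genotypes overlapped under both treatments.

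**Figure D1:**
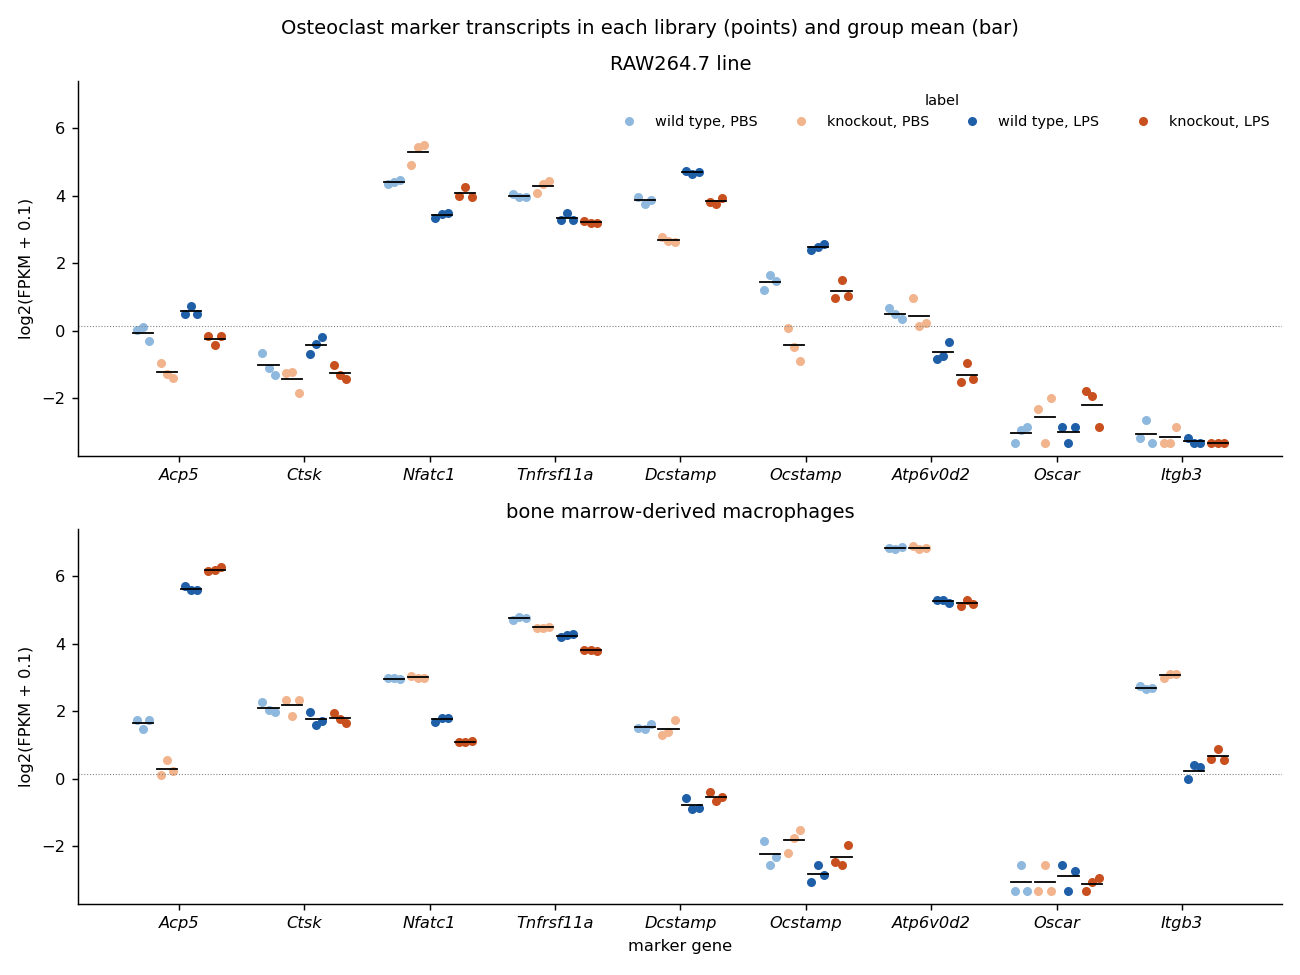
Level of each of the 9 markers, as log2(FPKM + 0.1), in every library of RAW264.7 (top) and BMDMs (bottom); points are libraries, bars are means of 3 libraries on the log2 scale, colours are the labelled groups, and the dotted line is at 1 FPKM. *Oscar* lay near the floor in both cell types and *Itgb3* only in RAW264.7, while *Atp6v0d2* in BMDMs with PBS reached 111.50 to 118.26 FPKM.

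Set side by side, the untreated wild-type groups of the 2 cell types held different sets of markers. Means of at least 1 FPKM were found for 5 of the 9 genes in RAW264.7 (*Nfatc1*, *Tnfrsf11a*, *Dcstamp*, *Ocstamp* and *Atp6v0d2*) and for 7 in BMDMs (all but *Ocstamp* and *Oscar*). The mean FPKM in BMDMs was 86.4 times that in RAW264.7 for *Atp6v0d2*, 10.5 times for *Ctsk*, 3.53 times for *Acp5* and 1.70 times for *Tnfrsf11a*. The mean in RAW264.7 was 22.6 times that in BMDMs for *Ocstamp*, 5.19 times for *Dcstamp* and 2.72 times for *Nfatc1*. The fusion genes and *Nfatc1* were thus higher in the line, and the pump subunit, the enzymes, the receptor and *Itgb3* in the primary cells. The tables were scaled separately, and these ratios have no test.

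In RAW264.7 with PBS, the libraries labelled knockout had lower *Dcstamp*, *Ocstamp* and *Acp5* and higher *Nfatc1* than wild type. Of the 9 markers, 1 was called higher and 3 lower, against a background of 8.55% of 26740 genes called (4.79% higher and 3.77% lower). Among genes of at least 1 FPKM in 3 libraries, 19.5% were called, and 4 of the 6 markers that passed this filter. *Ocstamp* fell by 1.88 on the log2 scale (SE 0.242, adjusted p = 0.00105), *Dcstamp* fell by 1.17 (SE 0.0858, adjusted p = 2.80e-05) and *Acp5* fell by 1.15 (SE 0.158, adjusted p = 0.00148). *Nfatc1* rose by 0.88 (SE 0.150, adjusted p = 0.00537), the opposite direction to the other 3. *Tnfrsf11a* was 0.30 higher (adjusted p = 0.0819), *Ctsk* 0.42 lower (adjusted p = 0.277) and *Atp6v0d2* 0.053 lower (adjusted p = 0.973), and these did not pass. The background depends on single libraries, at 20.8% of genes without replicate 1 of the labelled knockout and 4.88% to 5.44% without any other library of these groups. Without replicate 1 the same 4 genes passed, with *Ocstamp* at -2.13, *Acp5* at -1.29, *Dcstamp* at -1.22 and *Nfatc1* at 1.065. The call of *Nfatc1* was lost when only these 2 groups were fitted (adjusted p = 0.0694). The median log2 fold change of the 9 markers was -0.11, against 0.022 over all genes tested.

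Under LPS the same direction was seen for these 4 genes in RAW264.7, and *Ctsk* joined the lower ones. Of the 9 markers, 1 was called higher and 4 lower, where 17.3% of all genes were called (9.73% higher and 7.60% lower). Among genes of at least 1 FPKM in 3 libraries, 31.1% were called, and 5 of the 6 markers that passed this filter. *Ctsk* did not pass the filter, and *Atp6v0d2* was among those called (limma, adjusted p = 0.0378). *Ocstamp* fell by 1.32 (SE 0.242, adjusted p = 0.00476), *Dcstamp* fell by 0.85 (SE 0.0858, adjusted p = 0.000154), *Ctsk* fell by 0.84 (SE 0.232, adjusted p = 0.0276) and *Acp5* fell by 0.82 (SE 0.158, adjusted p = 0.00585). *Nfatc1* rose by 0.65 (SE 0.150, adjusted p = 0.0134). *Atp6v0d2* was 0.66 lower and missed the threshold (adjusted p = 0.0756), and *Tnfrsf11a* was 0.13 lower (adjusted p = 0.402). With quantile scaling *Atp6v0d2* passed (-1.015, limma, adjusted p = 0.0282). *Ctsk* rests on 5 to 17 counts per library and was called in 10 of 20 alternative settings. Its call was lost with edgeR without a count filter (adjusted p = 0.166), DESeq2 (0.122), no filter (0.0837), the intensity trend (0.0687), TPM (0.0607), a pseudocount of 1 (log2 fold change -0.32) and when any of 4 libraries was left out (highest adjusted p = 0.0948). *Nfatc1* no longer passed without replicate 2 of the labelled knockout with LPS, where its log2 fold change was 0.55. Macrophage markers moved with the label in this line as well: the summed FPKM of the 8 genes was 1145 to 1420 in the libraries labelled knockout and 3344 to 3402 in wild type with PBS, and 1215 to 1278 and 3880 to 4013 with LPS. The sums are carried by *Lyz2* and *Cd14*. With PBS the members differed in direction, 2 higher and 5 lower, whereas with LPS all 7 tested were lower. Of the 7 genes tested, 4 were called lower and 0 higher under each treatment, and with PBS *Csf1r* was 0.37 and *Fcgr1* 0.26 higher on the log2 scale, neither of them called. Their part in these results was not tested.

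In BMDMs at rest, *Acp5* alone of the 9 passed, and it was lower in the knockout. It fell by 1.36 on the log2 scale (SE 0.113, adjusted p = 0.000115), in a comparison with 1.82% of 26973 genes called (0.901% higher and 0.916% lower). *Tnfrsf11a* was 0.27 lower (SE 0.0430, adjusted p = 0.00741), below the 1.5-fold limit, and *Itgb3* was 0.36 higher (adjusted p = 0.173). For *Atp6v0d2* and *Nfatc1* the 95% intervals of the log2 difference were -0.12 to 0.14 and -0.075 to 0.13. The median of the 9 log2 fold changes was 0.0073, against 0.010 over all genes.

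Under LPS it was *Nfatc1* alone that passed in BMDMs. It fell by 0.67 (SE 0.0465, adjusted p = 2.77e-05), with 4.76% of genes called (3.23% higher and 1.53% lower). *Acp5* was higher in the knockout by 0.57 (SE 0.113, adjusted p = 0.00699), a 1.48-fold difference that lay just under the limit, and it passed without replicate 1 of the wild type (log2 fold change 0.61, adjusted p = 0.014) or of the knockout with LPS (0.59, adjusted p = 0.0205). On other scales it lay further under the limit, at 0.41 with median-ratio scaling, 0.43 with edgeR without a count filter and 0.41 with DESeq2. *Tnfrsf11a* was 0.43 lower (SE 0.0430, adjusted p = 0.000164) and passed the fold limit with median-ratio scaling (0.59 lower) and with DESeq2. *Itgb3* was 0.44 higher (SE 0.119, adjusted p = 0.0304) and under the limit. The log2 difference of *Atp6v0d2* had a 95% interval of -0.20 to 0.064, but it depended on the scaling. With median-ratio scaling it was -0.22 (limma, adjusted p = 0.0303) and with DESeq2 -0.22 (adjusted p = 4.98e-05), both under the fold limit. *Dcstamp* was 0.24 higher (limma, adjusted p = 0.270).

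**Figure D2:**
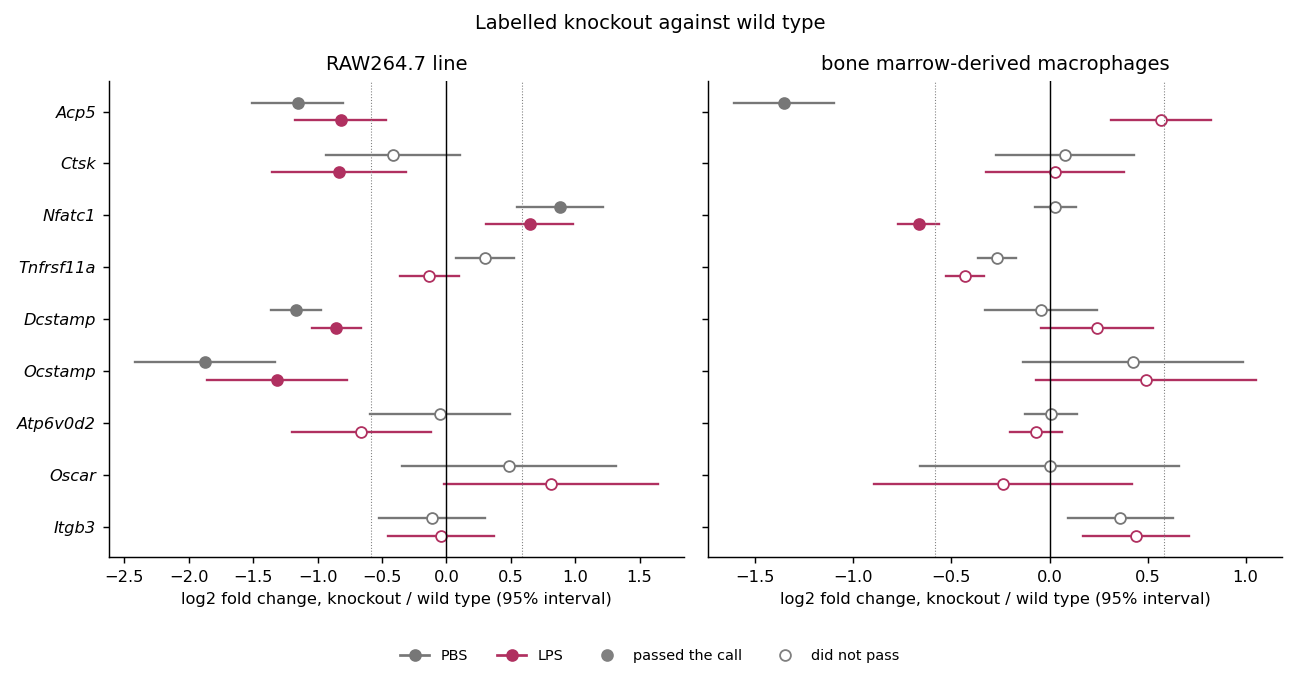
Log2 fold change of labelled knockout over wild type with its 95% interval for each marker, with PBS (grey) and with LPS (red), in RAW264.7 (left) and BMDMs (right); filled points passed the call and dotted lines mark a 1.5-fold change. In RAW264.7 *Dcstamp*, *Ocstamp* and *Acp5* lie left of 0 and *Nfatc1* right of it under both treatments, while in BMDMs *Acp5* changes side.

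In wild-type RAW264.7, 3 of 9 were called higher and 3 lower, where 18.3% of genes were called (5.80% higher and 12.5% lower). Among genes of at least 1 FPKM in 3 libraries, 33.9% were called, and 6 of the 6 markers that passed this filter. *Ocstamp* rose by 1.04 (SE 0.242, adjusted p = 0.0098), *Dcstamp* rose by 0.83 (SE 0.0858, adjusted p = 5.73e-05) and *Acp5* rose by 0.63 (SE 0.158, adjusted p = 0.0151). *Atp6v0d2* fell by 1.14 (SE 0.241, adjusted p = 0.00591), *Nfatc1* fell by 0.97 (SE 0.150, adjusted p = 0.000871) and *Tnfrsf11a* fell by 0.64 (SE 0.102, adjusted p = 0.0011). The receptor, its transcription factor and the pump subunit thus went down while the fusion genes went up. *Ctsk* was 0.60 higher (adjusted p = 0.0977). With median-ratio scaling, which sets each library by the median ratio of its genes and raised the median of genes at 1 FPKM or more by 0.23, the split was 4 higher and 2 lower, with *Ctsk* (0.80) among the called and *Tnfrsf11a* (-0.40) not. The call of *Acp5* was lost without replicate 3 of the wild type with PBS (adjusted p = 0.0588) or replicate 2 with LPS (adjusted p = 0.0616).

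In the RAW264.7 libraries labelled knockout, the same 6 genes were called in the same directions, with 22.1% of all genes called (7.45% higher and 14.6% lower). Among genes of at least 1 FPKM in 3 libraries, 39.4% were called, and 6 of the 6 markers that passed this filter. *Ocstamp* rose by 1.60 (SE 0.242), *Dcstamp* by 1.15 (SE 0.0858) and *Acp5* by 0.96 (SE 0.158), with adjusted p of 0.000618, 4.82e-06 and 0.00106. *Atp6v0d2* fell by 1.75 (SE 0.241), *Nfatc1* fell by 1.21 (SE 0.150) and *Tnfrsf11a* fell by 1.07 (SE 0.102), with adjusted p of 0.000346, 0.000163 and 2.59e-05. All 6 passed without replicate 1 of the PBS group too, from -1.49 for *Atp6v0d2* and -1.39 for *Nfatc1* to 1.19 for *Dcstamp* and 1.86 for *Ocstamp*. With median-ratio scaling the values were 0.26 higher for genes at 1 FPKM or more, and the same split of 3 higher and 3 lower was found. The genotype by LPS interaction, which tests whether the response differed between the labels, was called for 0 of 9 markers by limma, where 1.95% of genes were called (0.905% higher and 1.04% lower), and also for 0 by edgeR and by DESeq2. At an unadjusted p under 0.05 there were 2, *Tnfrsf11a* (-0.43, adjusted p = 0.253) and *Dcstamp* (0.32, adjusted p = 0.368). Without replicate 1 the interaction of *Tnfrsf11a* had an adjusted p of 0.0209 at -0.53, under the 1.5-fold limit.

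In wild-type BMDMs, LPS raised *Acp5* and lowered *Itgb3*, *Dcstamp*, *Atp6v0d2* and *Nfatc1*. This was 1 of 9 higher and 4 lower, in a comparison where 40.4% of all genes were called (7.94% higher and 32.5% lower). Among genes of at least 1 FPKM in 3 libraries, 69.4% were called, and 5 of the 7 markers that passed this filter. *Acp5* rose by 3.98 on the log2 scale (SE 0.113, adjusted p = 1.18e-09), a 15.8-fold rise. *Itgb3* fell by 2.46 (SE 0.119), *Dcstamp* fell by 2.30 (SE 0.127), *Atp6v0d2* fell by 1.57 (SE 0.0584) and *Nfatc1* fell by 1.21 (SE 0.0465), all with adjusted p of at most 1.13e-07. *Tnfrsf11a* was 0.50 lower and under the fold limit, and *Ctsk* was 0.34 lower (adjusted p = 0.101). The scale matters here: genes at 1 FPKM or more had a median log2 fold change of -0.73, and median-ratio scaling raised it by 0.79. On that scale *Acp5* was at 4.77, *Itgb3* at -1.69, *Dcstamp* at -1.58 and *Atp6v0d2* at -0.77, all still called, whereas *Nfatc1* was at -0.42 and not called, *Tnfrsf11a* at 0.30 and *Ctsk* at 0.44. The split was then 1 higher and 3 lower.

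In *Olfml3*-/- BMDMs the rise of *Acp5* was steeper and so was the fall of *Nfatc1*. Of the 9 markers 1 was called higher and 5 lower, with 38.9% of genes called (8.02% higher and 30.9% lower). Among genes of at least 1 FPKM in 3 libraries, 65.6% were called, and 6 of the 7 markers that passed this filter. *Acp5* rose by 5.90 (SE 0.113, adjusted p = 1.05e-10), a 59.8-fold rise. *Itgb3* fell by 2.38 (SE 0.119), *Dcstamp* fell by 2.01 (SE 0.127), *Nfatc1* fell by 1.91 (SE 0.0465), *Atp6v0d2* fell by 1.65 (SE 0.0584) and *Tnfrsf11a* fell by 0.67 (SE 0.0430). The adjusted p of each was at most 4.12e-07. With median-ratio scaling *Nfatc1* was at -1.23 and still called, and *Tnfrsf11a* at 0.018 and not called, so its direction depends on the scaling. The interaction passed for *Acp5* at 1.92 (SE 0.160, adjusted p = 0.00021) and for *Nfatc1* at -0.70 (SE 0.0658, adjusted p = 0.000367), where 2.93% of genes were called (1.91% higher and 1.02% lower). Both remained called with median-ratio scaling, at 1.79 and -0.81, and when any of the 12 libraries was left out. With a pseudocount of 1 the interaction of *Nfatc1* was at -0.53 and its genotype difference under LPS at -0.50, both under the fold limit.

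**Figure D3:**
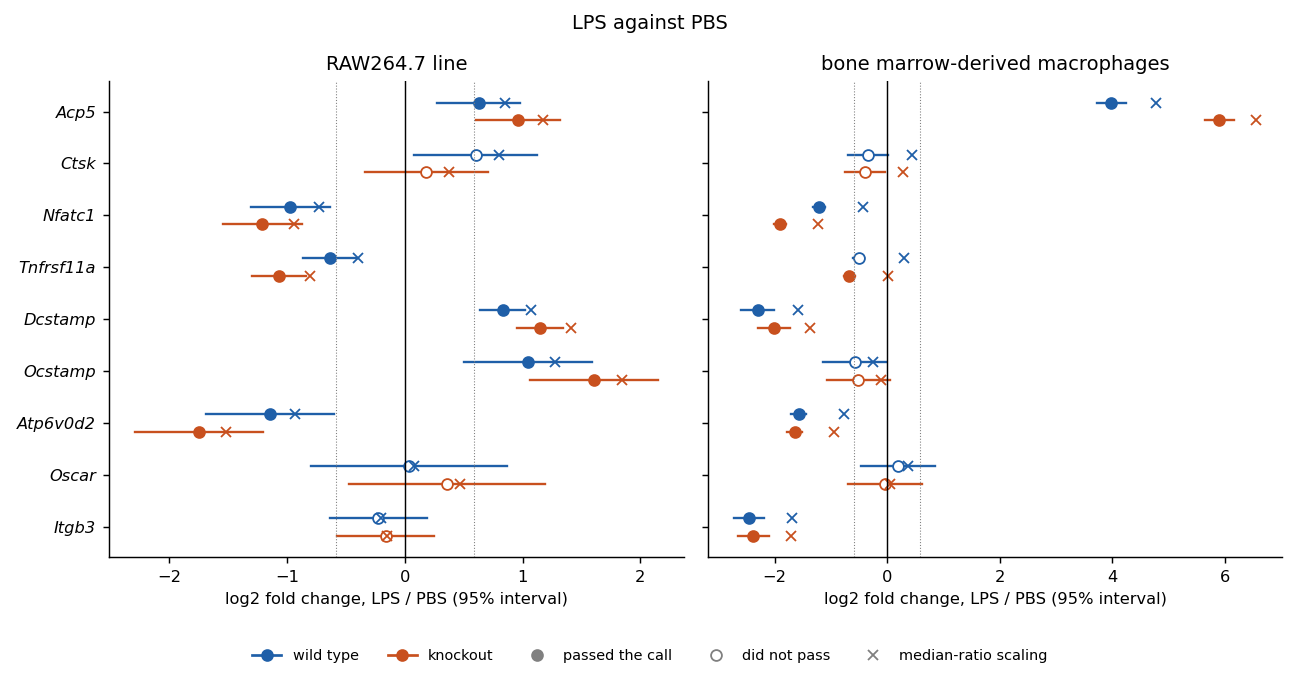
Log2 fold change of LPS over PBS with its 95% interval for each marker in wild type (blue) and labelled knockout (orange), in RAW264.7 (left) and BMDMs (right, wider axis); filled points passed the call, crosses give the value with median-ratio scaling, and dotted lines mark a 1.5-fold change. *Dcstamp* lies right of 0 in RAW264.7 and left of 0 in BMDMs on both scales, and *Tnfrsf11a* in BMDMs moves across 0 with the scaling.

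The response of *Dcstamp* to LPS had opposite directions in the 2 cell types, and this held for both genotypes. In RAW264.7 every LPS library was above every PBS library of its genotype, and in BMDMs every one was below. *Atp6v0d2* and *Nfatc1* fell in all 4 LPS comparisons, except that the fall of *Nfatc1* in wild-type BMDMs was not called with median-ratio or quantile scaling, edgeR or DESeq2 (-0.42 to -0.52). *Acp5* rose in all 4, by between 0.63 and 5.90.

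**Figure D4:**
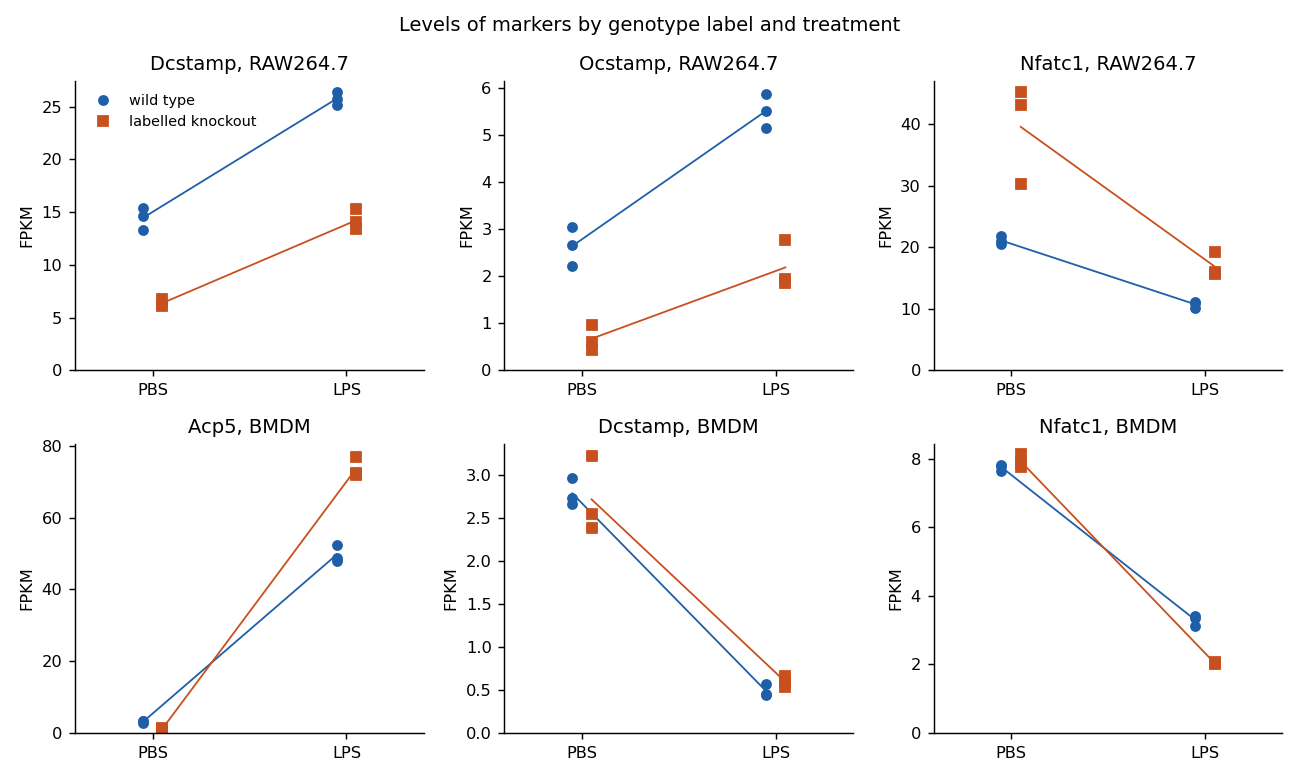
FPKM of *Dcstamp*, *Ocstamp* and *Nfatc1* in RAW264.7 (top) and of *Acp5*, *Dcstamp* and *Nfatc1* in BMDMs (bottom) with PBS and LPS; points are libraries and lines join the means of 3 libraries of wild type (blue circles) and labelled knockout (orange squares), with each axis starting at 0. In BMDMs the lines of *Acp5* and *Nfatc1* cross, and in RAW264.7 those of *Dcstamp* and *Ocstamp* do not.

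The genes around these markers were described with 7 lists, whose counts are to be read beside the shares of all genes called. Between genotypes these were 4.79% higher and 3.77% lower in RAW264.7 with PBS, 9.73% and 7.60% with LPS, 0.901% and 0.916% in BMDMs with PBS, and 3.23% and 1.53% with LPS. For LPS in wild type they were 5.80% and 12.5% in RAW264.7 and 7.94% and 32.5% in BMDMs. Shares were larger among genes of at least 1 FPKM in 3 libraries. Between genotypes, 19.5% of these were called in RAW264.7 with PBS and 31.1% with LPS, and 3.43% and 9.02% in BMDMs. Without replicate 1 of the RAW264.7 group labelled knockout and given PBS, a fit added after the data were seen, 12.7% of genes were higher and 8.11% lower with PBS. Upstream, RANK ligand itself (*Tnfsf11*) had 0 counts in all 12 RAW264.7 libraries and 1 count in the BMDM libraries together, and its decoy receptor osteoprotegerin (*Tnfrsf11b*) had 0 counts in RAW264.7 and at most 0.13 FPKM in BMDMs. Neither cell type thus carried more than traces of the ligand. Of the 14 genes of this list tested in RAW264.7, 2 were called lower in the libraries labelled knockout with PBS, both parts of AP-1: *Jun* fell from 18.1 ± 1.83 to 6.41 ± 0.107 FPKM (SD, n = 3; log2 fold change -1.48, adjusted p = 0.000159) and *Fos* from 9.84 ± 0.340 to 4.11 ± 0.701 (-1.25, adjusted p = 0.00145). Without replicate 1, 5 were also called higher (*Traf6*, *Traf3*, *Map3k7*, *Tab2* and *Nfkb1*, named after their values were seen), with log2 fold changes of 0.62 for *Tab2* to 0.83 for *Traf6*. Under LPS 1 was higher and 3 lower, and *Jun* was at 2.06 ± 0.430 FPKM in the labelled knockout against 11.01 ± 0.516 in wild type. In BMDMs 0 of 16 were called between genotypes at rest, and under LPS *Jdp2*, another AP-1 family member, was higher in knockout (47.9 ± 2.02 against 27.5 ± 0.624 FPKM) and *Jun* lower (13.0 ± 0.627 against 20.1 ± 1.54).

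The receptor of M-CSF, *Csf1r*, fell with LPS in both cell types and genotypes, from 263 ± 7.91 to 100 ± 2.17 FPKM in wild-type RAW264.7 and from 372 ± 4.12 to 139 ± 3.58 in wild-type BMDMs (log2 fold change -1.39 and -1.42, and -1.15 and -0.62 with median-ratio scaling). Its ligand *Csf1* rose from 0.060 ± 0.0436 to 6.91 ± 0.165 and from 7.63 ± 0.917 to 64.9 ± 2.02 FPKM. In the list of the M-CSF axis and precursor transcription factors, 0 of 7 were called between genotypes with PBS in either cell type. With LPS 2 were higher in the RAW264.7 libraries labelled knockout, *Csf1* and *Prdm1*, and 0 of 7 were called in BMDMs.

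Among repressors of osteoclast differentiation, *Tnfaip3*, which restrains NF-κB signalling, was at 79.8 ± 2.74 FPKM in the RAW264.7 libraries labelled knockout with LPS and at 36.5 ± 0.420 in wild type (adjusted p = 8.84e-05). *Irf8*, a repressor of NFATc1, rose with LPS in wild-type BMDMs from 32.7 ± 0.543 to 171 ± 6.52 FPKM but was at 27.3 ± 0.490 and 40.1 ± 2.50 in the knockout, and its interaction passed (-1.83, SE 0.0778, adjusted p = 4.37e-06). Of the 9 genes on this list, 2 were called lower between genotypes in RAW264.7 with PBS (2 higher and 2 lower without replicate 1), and 2 higher and 2 lower with LPS. In BMDMs 0 were called with PBS, and 2 higher and 3 lower with LPS.

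The list of ITAM costimulation, which carries the calcium signal, also holds the inhibitory receptors *Pirb* and *Lilrb4a*. LPS lowered 4 and raised 2 of its 12 genes in wild-type RAW264.7 and lowered 3 and raised 1 in wild-type BMDMs. The adaptor *Lcp2* rose in each, from 29.2 ± 0.674 to 166 ± 3.63 and from 31.1 ± 0.136 to 147 ± 3.25 FPKM, and *Trem2* fell in RAW264.7 from 66.9 ± 1.72 to 27.8 ± 0.265. Median-ratio scaling turned the splits to 3 higher and 2 lower in RAW264.7 and 5 higher and 1 lower in BMDMs, so no direction is given for the list. Between RAW264.7 genotypes 1 of the 12 genes on this list was called higher and 1 lower with PBS, and 2 higher and 4 lower with LPS. The gene lower with PBS was *Pirb*, near the floor at 0.05 to 0.13 FPKM in the labelled knockout (named after its values were seen). *Syk*, the kinase of this path, was higher in the RAW264.7 libraries labelled knockout than in wild type (7.34 ± 1.44 against 3.60 ± 0.0874 FPKM with PBS, 8.43 ± 0.367 against 4.08 ± 0.394 with LPS). In the calcium and calcineurin list 1 of 7 genes was higher in the labelled knockout with PBS, *Creb1* (8.88 ± 2.02 against 5.603 ± 0.117 FPKM), which was not called with median-ratio scaling. Replicate 1 lay nearest to wild type for both genes, at 5.67 FPKM of *Syk* and 6.58 of *Creb1*. Without it both were called, with log2 fold changes of 1.16 and 0.83. Of the 12 genes on the ITAM list 2 were then higher, *Syk* and the inhibitory *Lilrb4a*, and 2 lower, and 2 of 7 calcium genes were higher. With LPS 3 of the 7 calcium genes were higher and 0 lower, among them *Rcan1*, a feedback inhibitor of calcineurin, at 34.5 ± 0.875 against 15.9 ± 0.714 FPKM. In BMDMs 0 of 12 and 0 of 7 genes of these lists were called between genotypes under either treatment.

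Cell fusion and adhesion genes were called lower in the RAW264.7 libraries labelled knockout for 3 of 10 genes with PBS and for 4 with LPS, and higher for 0 and 1. *Adam8* fell from 54.3 ± 1.55 to 24.2 ± 0.741 FPKM with PBS and from 28.5 ± 0.450 to 6.09 ± 0.07 with LPS (log2 fold change -2.21, adjusted p = 6.97e-08). *Cd44* was at 16.9 ± 0.388 against 32.5 ± 1.44 FPKM with PBS, and *Cd9* at 148 ± 28.0 against 244 ± 6.65, where replicate 1 was at 180.01. Without replicate 1 the same counts of 0 higher and 3 lower were found. In BMDMs 0 of 10 were called at rest and 1 with LPS, *Sh3pxd2a*, higher in the knockout. *Itgav*, the partner of integrin β3, rose with LPS in wild-type RAW264.7 from 7.26 ± 0.0473 to 20.7 ± 0.467 FPKM and in wild-type BMDMs from 16.5 ± 0.389 to 53.4 ± 0.966, whereas *Itgb3* fell in BMDMs. *Src*, the kinase that organises the resorbing surface, rose from 0.03 ± 0.01 to 7.41 ± 0.230 and from 0.453 ± 0.102 to 28.4 ± 1.21.

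Among the 13 genes of acid secretion and resorption, 0 were higher and 2 lower with PBS in the RAW264.7 libraries labelled knockout, and 0 and 3 with LPS. Those lower with PBS were *Car2* and *Slc9b2*, the latter at 0.01 to 0.06 FPKM in the labelled knockout and named after its values were seen. The call of *Slc9b2* was lost without replicate 1 (log2 fold change -0.57, limma, adjusted p = 0.0708). *Car2*, the carbonic anhydrase that supplies protons, fell from 311 ± 10.6 to 113 ± 11.4 FPKM with PBS (log2 fold change -1.47, adjusted p = 5.07e-06) and from 324 ± 3.15 to 160 ± 5.13 with LPS. *Mmp9*, a matrix protease, was at 9.57 ± 0.772 FPKM in wild type with LPS and 0.540 ± 0.0173 in the labelled knockout (-3.91, adjusted p = 7.73e-08). The ubiquitous subunit *Atp6v0d1*, for which d2 is the osteoclast counterpart, was lower in the labelled knockout by 0.58 with PBS (adjusted p = 0.0278), just under the fold limit. It was called there with median-ratio scaling (-0.62) and without replicate 1 (-0.76, adjusted p = 4.91e-05), and it fell by 0.72 with LPS (adjusted p = 0.00573). *Atp6v0d2* did not pass in either, but with LPS its estimate was close (-0.66, limma, adjusted p = 0.0756). In BMDMs 0 of 13 were called between genotypes at rest and 1 with LPS, *Mmp9*, which was higher in knockout (1.38 ± 0.163 against 0.490 ± 0.0755 FPKM), the opposite of RAW264.7. LPS lowered *Atp6v0d1* in wild-type BMDMs from 95.8 ± 0.905 to 62.3 ± 3.20 FPKM (-0.62), but with median-ratio scaling it was at 0.18 and not called, whereas *Atp6v0d2* was still called lower there.

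**Figure D5:**
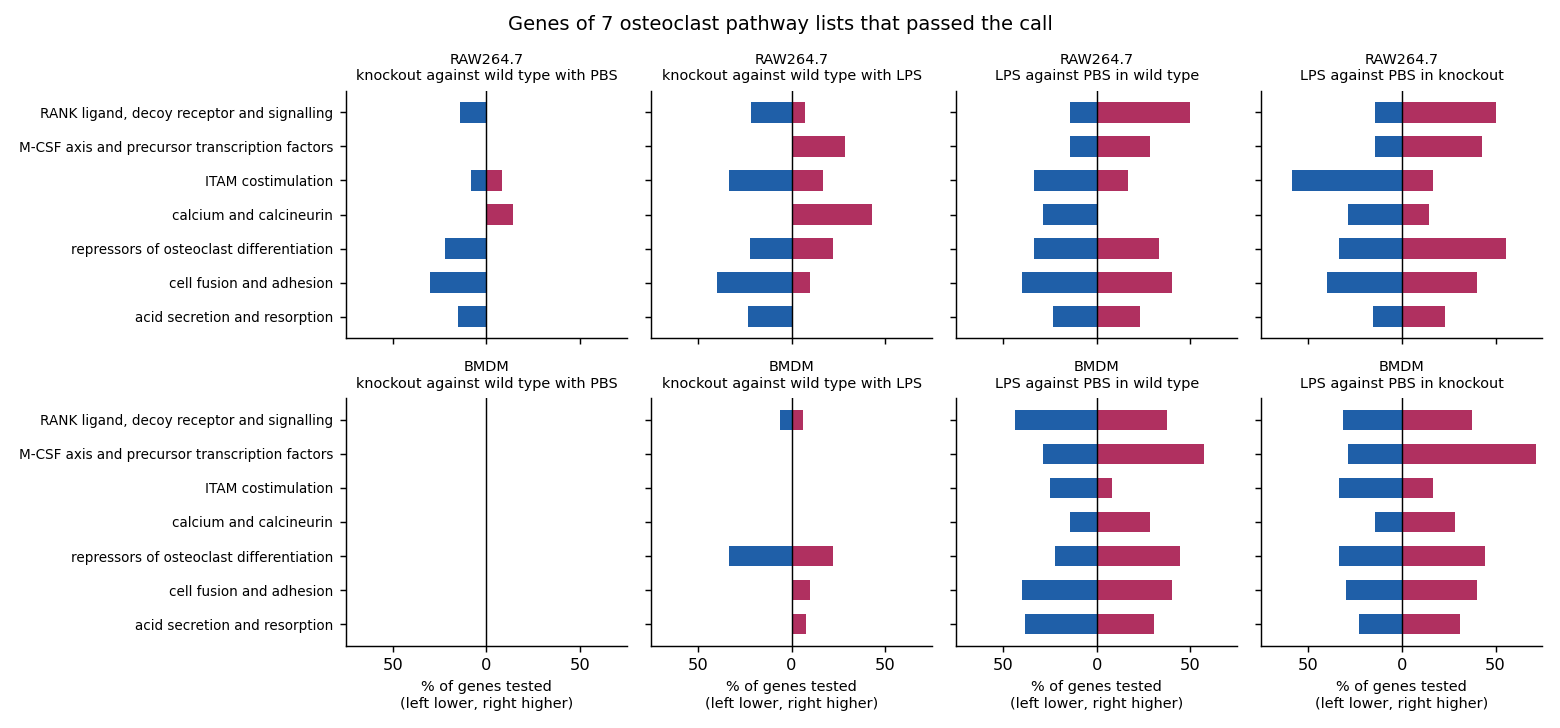
Share of the genes tested on each of 7 lists that passed the call as higher (right, red) or lower (left, blue), for labelled knockout against wild type and for LPS against PBS, in RAW264.7 (top) and BMDMs (bottom). At rest 0 genes on the 7 lists were called between genotypes in BMDMs, whereas in RAW264.7 6 of the 7 lists had at least 1. Over all genes, 1.82% and 8.55% were called in these comparisons.

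The genes whose levels followed each marker most closely over the 12 libraries of a cell type were named for markers with a mean of at least 1 FPKM. In RAW264.7 *Cd14*, the LPS co-receptor, was closest to both *Dcstamp* (Pearson's r of log2 levels 0.9947 among 11211 genes) and *Ocstamp* (0.9791), followed by *Tmem106a* (0.9918) and *Id1* (0.9761). *Nfatc1* was closest to *Vamp1* (0.9927) and *Alg6* (0.9915), and *Tnfrsf11a* to *Sft2d2* (0.9934) and *Sord* (0.9903). In BMDMs *Acp5* was closest to *Parp14* (0.9964) and *Serp1* (0.9962), *Nfatc1* to *Anks1* (0.9971) and *Gyg* (0.9965), *Atp6v0d2* to *Ccni* (0.9986) and *Cnot6l* (0.9985), and *Itgb3* to *Dock1* (0.9977) and *Slc35e1* (0.9975). *Dcstamp* was closest there to *Pdcd2l* (0.9975) and *Pigq* (0.9969), *Tnfrsf11a* to *Pltp* (0.9888) and *Ptpro* (0.9874), and *Ctsk*, which varied least, to *Ndufaf8* (0.8803) and *Gm13680* (0.8725). These correlations run over 12 libraries that share 4 groups, and they describe the order of the groups.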

How the data were processed

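RNA-seq of 24 libraries (8 groups of 3) was used as deposited. Counts per gene and FPKM came in a table for each cell type from the authors, and the submitters' processing notes name mm10. No aligner or counting program is named in the sources used here. FPKM recomputed from counts and gene length lay within 1% of what was deposited for 99.9% (RAW264.7) and 99.5% (BMDMs) of entries above 50 counts. Sample titles gave the groups, because in 12 of 24 samples the genotype tag differs from the title. Using limma 3.58.1 (R 4.3.3), log2(FPKM + 0.1) of 12 libraries per cell type was fitted two-sided for genes above 0 FPKM in at least 1 library, with 8 residual and 1.43 (RAW264.7) or 1.28 (BMDMs) prior degrees of freedom. Deposited counts went into edgeR 4.0.16 (quasi-likelihood) and DESeq2 1.42.0 as alternatives. Others were pseudocounts of 0.01 and 1, no filter or FPKM filters of 0.1 and 1 in 3 libraries, TPM, median-ratio and quantile scaling, an intensity trend, only the groups compared, a replicate block, the adjusted p alone and each library left out. The limma, edgeR and DESeq2 fits were tested on simulated data for knockout against wild type with PBS only. The 9 members and the lists were chosen with earlier results of these data known. Of each list, the 3 called genes with the largest change and at least 1 FPKM in a group could be named, with *Tnfsf11*, *Tnfrsf11b*, *Csf1r*, *Irf8*, *Atp6v0d1* and *Itgav* in any comparison. A further gene of these lists is not reported here. The strand of counting is not given, and reads of *Acp5* cannot be told apart from those of an overlapping gene on the other strand, which held at most 15 counts per cell type.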

Additional observations from a re-analysis of the deposited data

Results flagged for a closer look

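In BMDMs the response to LPS differed between the genotypes by a test of the difference itself for *Acp5* (interaction 1.92 on the log2 scale, adjusted p = 0.00021, limma) and for *Nfatc1* (-0.70, adjusted p = 0.000367). *Acp5* went from 3.07 to 49.7 FPKM on average in wild type and from 1.14 to 73.7 in knockout, and *Nfatc1* from 7.76 to 3.30 and from 7.93 to 2.04.

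For the pairs below, the 2 groups compared did not overlap within either cell type, and the change had opposite directions in the 2 cell types. The difference between the cell types was not tested because the tables were made separately. *Dcstamp* rose with LPS in RAW264.7 (0.83 in wild type, 1.15 in the libraries labelled knockout) and fell in BMDMs (-2.30 and -2.01). Under LPS, *Acp5* was lower in the RAW264.7 libraries labelled knockout (-0.82) and higher in knockout BMDMs (0.57, short of the fold limit). *Nfatc1* under LPS was higher in the former (0.65) and lower in the latter (-0.67). *Tnfrsf11a* with PBS was 0.30 higher in the RAW264.7 libraries labelled knockout and 0.27 lower (log2 fold change -0.27) in knockout BMDMs, and neither value passed the call. In RAW264.7 these directions rest on labels that the level of *Olfml3* goes against.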

How the results depend on the processing

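Each of the 10 comparisons was recomputed under every alternative, which gave 1916 values for the 9 markers. Of these, 1864 kept their side of the threshold, 35 lost the call, 15 gained it and 2 reversed. Among the 1864, 79 changed sign with neither value called. Some of these had a small adjusted p on both sides and missed only the fold limit. *Tnfrsf11a* for LPS in wild-type BMDMs was at -0.50 (limma, adjusted p = 3.22e-06). With median-ratio scaling it was at 0.30 (limma, adjusted p = 0.000335) and with DESeq2 at 0.30 (adjusted p = 4.72e-13). The reversals were *Tnfrsf11a* for LPS in knockout BMDMs, at 0.018 with median-ratio scaling and 0.020 with DESeq2. The number of markers called moved by over 1.5 times in the following cases. For labelled knockout against wild type in RAW264.7 with LPS (5 of 9), a pseudocount of 1 left 3. In BMDMs with PBS (1 of 9), the adjusted p alone gave 2. In BMDMs with LPS (1 of 9), a pseudocount of 1 gave 0, median-ratio scaling 2, DESeq2 2 and the adjusted p alone 4. For the BMDM interaction (2 of 9), a pseudocount of 1 gave 1. A pseudocount of 1 shrinks changes of genes near 1 FPKM by construction. Leaving out 1 library at a time gave 3 to 5 called markers for labelled knockout against wild type in RAW264.7 with LPS (3 without replicate 2 of the labelled knockout) and 4 with PBS, 5 to 7 for LPS in wild-type RAW264.7 and 6 in the labelled knockout, 1 to 2 for genotype in BMDMs with LPS (2 without replicate 1 of either genotype) and 1 with PBS, 5 to 6 for LPS in wild-type BMDMs and 6 in knockout, and 0 and 2 for the interactions. Libraries that share a replicate number deviated together weakly at most (correlations of -0.039 to 0.084 in RAW264.7 and -0.058 to 0.071 in BMDMs, none of 18 pairs in either over 0.1). In BMDMs the median was 0.029 for the same number and -0.015 for different numbers. Such values cannot exclude a shared culture or animal, so what the number pairs is not known. With a replicate block the counts of called markers were 4, 5, 6, 6 and 0 in RAW264.7 and 1, 1, 5, 6 and 2 in BMDMs, as without it. A fit of only the groups compared cannot give an interaction and was not run for it. Median-ratio scaling moved the share of called genes that were higher from 19.6% to 48% for LPS in wild-type BMDMs, from 20.6% to 46.8% in knockout, from 31.7% to 49.7% in wild-type RAW264.7, from 33.8% to 51.7% in the labelled knockout and, between BMDM genotypes with LPS, from 67.9% to 43.3%. TPM raised it from 56% to 72.5% and from 56.1% to 75.8% between RAW264.7 genotypes with PBS and LPS. Without replicate 1 of the RAW264.7 group labelled knockout and given PBS (added after seeing the data), counts on the RANK signalling list between genotypes with PBS went from 0 higher and 2 lower to 5 and 2. Depth limits *Oscar* in both cell types, *Itgb3* and *Ctsk* in RAW264.7 and *Ocstamp* in BMDMs.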
